A study of Homo sapiens with 6 samples.

Results

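Expression was examined for 9 genes of the SLC39 family of zinc importers and for ERH, a gene that overlaps the family member SLC39A9 on the opposite strand. The 10 genes were taken by name from a deposited table of 60612 genes. SLC39A9 was chosen by its call between these same groups, ERH because of its position, and the other 8 by family. A further 5 SLC39 genes among the deposited genes were left out of this choice. Since SLC39A9 was chosen by its call, its contrast is given as a description and is no independent evidence. The cells were PANC-1, an established human pancreatic carcinoma line. Raffinose, a galactose-containing plant trisaccharide, was given as D(+)-raffinose pentahydrate at 50 µM for 24 h in 3 libraries, and 3 libraries came from PANC-1 cells for which no compound, vehicle or time is named. All were grown in medium with fetal bovine serum, and poly(A) RNA was sequenced as read pairs.

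ZIP proteins, encoded by SLC39 genes, move zinc into the cytosol, either from outside the cell or out of organelles. ZnT proteins, encoded by SLC30 genes, move it the other way. Metallothioneins bind zinc in the cytosol, and the transcription factor MTF1 senses it and switches on metallothionein genes and the exporter gene SLC30A1 through metal response elements. ERH is a small conserved nuclear protein that takes part in RNA processing and binds DGCR8, a subunit of the Microprocessor complex that cuts primary miRNAs.

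In the deposited coordinates SLC39A9 (ENSG00000029364) lies on chromosome 14 from 69398015 to 69462390 on the plus strand, and ERH (ENSG00000100632) from 69380128 to 69398299 on the minus strand. Which genome build the table uses is not given in the sources used here. Both gene spans overlap head to head over 285 bases, at the first exons. RefSeq (GRCh38.p14) places the start of ERH at the same base as the deposited end of the gene and the first start of SLC39A9 85 bases away, with a second SLC39A9 start 393 bases away. The RefSeq promoter windows of 300 bases, most of them upstream of the start, share 184 bases, printed below in capitals, because both genes are transcribed outward from this stretch. The SLC39A9 window is chr14:69398134-69398433 on the plus strand and the ERH window is chr14:69398250-69398549 on the minus strand, so the capitals of one are the reverse complement of the other.
SLC39A9: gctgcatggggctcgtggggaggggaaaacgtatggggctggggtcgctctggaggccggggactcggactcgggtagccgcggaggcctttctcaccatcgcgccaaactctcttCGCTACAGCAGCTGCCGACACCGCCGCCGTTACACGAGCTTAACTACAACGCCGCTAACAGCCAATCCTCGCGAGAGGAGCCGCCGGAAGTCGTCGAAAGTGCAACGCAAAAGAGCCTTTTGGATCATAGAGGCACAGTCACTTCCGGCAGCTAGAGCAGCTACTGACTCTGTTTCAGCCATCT
ERH: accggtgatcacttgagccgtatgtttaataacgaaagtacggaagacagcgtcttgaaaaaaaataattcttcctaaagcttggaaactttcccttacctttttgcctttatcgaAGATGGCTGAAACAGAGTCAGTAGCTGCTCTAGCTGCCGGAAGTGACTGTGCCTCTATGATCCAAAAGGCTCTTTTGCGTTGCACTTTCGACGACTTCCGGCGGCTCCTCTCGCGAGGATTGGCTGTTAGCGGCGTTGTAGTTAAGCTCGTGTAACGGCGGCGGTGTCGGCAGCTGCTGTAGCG

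How much of the exons overlap depends on where ERH starts. In GENCODE 29, which holds all 11 SLC39A9 and all 4 ERH transcripts that the table lists, the exons of SLC39A9 cover 7136 bases. With ERH ending where the table ends it, 69 of these bases (0.967%) are also exonic in ERH, all of them in 1 SLC39A9 transcript, and they make up 6.2% of the 1113 exonic bases of ERH. With the longer first exon that GENCODE 29 gives 1 of the 4 ERH transcripts, 373 bases in 3 SLC39A9 transcripts are shared. These are 5.23% of the SLC39A9 and 25.8% of the 1446 ERH exonic bases. The libraries mark strand, per the labels' protocols, but whether the counting used it is not stated. Reads within the shared bases could therefore not be told apart between the genes if strand was ignored.

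**Figure D1:**
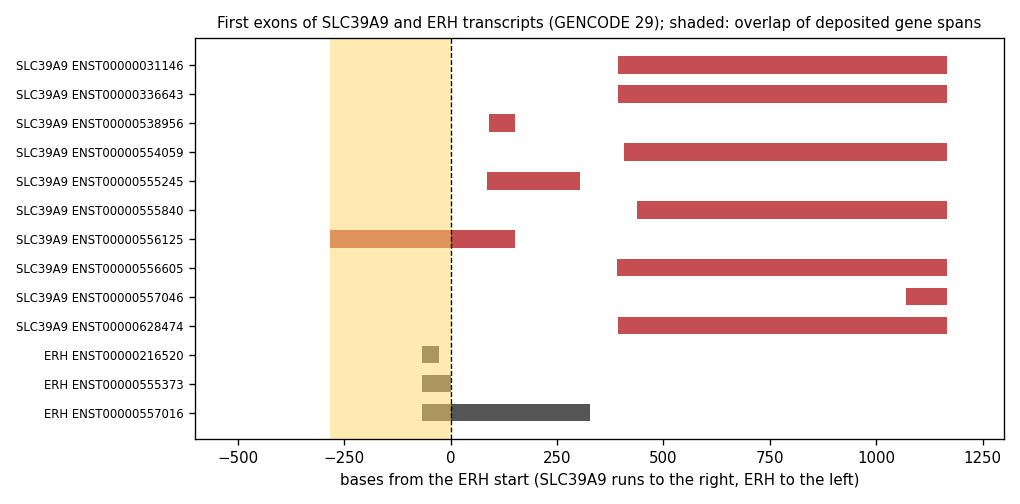
Exons near the start of ERH, in bases from the RefSeq start of ERH (dashed line), for SLC39A9 transcripts (red, running right) and ERH transcripts (grey, running left), from GENCODE 29. The shaded 285 bases are the overlap of the deposited gene spans, and 1 SLC39A9 transcript has exonic sequence there.

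SLC39A9, a zinc transporter of the Golgi and plasma membrane that has also been described as a membrane androgen receptor, had the largest log2 fold change of the 10 genes. Its level was 44.5, 34.1 and 32.0 CPM (counts scaled to library size with TMM) over raffinose replicates 1 to 3, against 11.8, 14.25 and 12.9 CPM over untreated replicates 1 to 3. Every raffinose library was above every untreated library, and the gap between the groups was wider than the spread within either. The means were 36.9 ± 6.70 CPM in raffinose-treated and 13 ± 1.23 CPM in untreated cells (SD, n = 3 each), a ratio of 2.84. By edgeR's quasi-likelihood test with Benjamini-Hochberg adjustment the log2 fold change was 1.505 (SE 0.15, 95% interval 1.14 to 1.86, adjusted p = 0.0336). In that test 0.122% of all 18863 tested genes were called, and of the tested genes 0.0371% were called higher and 0.0848% lower with raffinose.

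The SLC39A9 call depended on which library was left out, while its direction did not. The call held without raffinose replicate 1 (edgeR adjusted p = 0.0494) but not without any of the other 5. In those 5 fits the edgeR adjusted p ranged from 0.0569 to 0.144. The log2 fold change ranged from 1.35 to 1.60 over all 6 such fits. If each read pair adds 4 to the deposited count, which the excess of counts of 4 points to, the gene rests on about 515 to 713 read pairs in a raffinose library and about 190 to 230 in an untreated library.

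ERH was the most abundant of the 10 genes per length. It was at 165, 173 and 139 CPM over raffinose replicates 1 to 3, against 182, 168 and 170 CPM over untreated replicates 1 to 3. The groups overlapped, and raffinose replicate 3 was the lowest library. The means were 159 ± 18.0 CPM in raffinose-treated and 173 ± 7.55 CPM in untreated cells, and ERH did not pass (log2 fold change -0.13, SE 0.09, 95% interval -0.35 to 0.10, edgeR adjusted p = 0.622).

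The share of SLC39A9 in the summed level of the pair was higher with raffinose. SLC39A9 made up 21.2%, 16.5% and 18.7% of the summed CPM over raffinose replicates 1 to 3, against 6.09%, 7.82% and 7.07% in untreated replicates 1, 2 and 3. The sum itself was 210, 207 and 171 CPM in the raffinose libraries, against 194, 182 and 183 CPM in the untreated ones. The sums of the groups overlapped, with means of 195.8 ± 21.8 CPM with raffinose and 186 ± 6.47 CPM without, while the levels of SLC39A9 alone did not overlap. The lowest ERH level was in raffinose replicate 3, which also had the lowest SLC39A9 level of the raffinose libraries. The highest SLC39A9 level was in raffinose replicate 1. On the FPKM scale the sum leans the other way, with a difference of -4.79 FPKM between raffinose-treated and untreated means, against 9.49 CPM. Per length, SLC39A9 stood at 3.07% to 4.19% of the ERH level in raffinose libraries and at 1.01% to 1.32% in untreated libraries, on the FPKM scale. Whether reads of the shared bases were assigned differently in the groups was not tested.

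**Figure D2:**
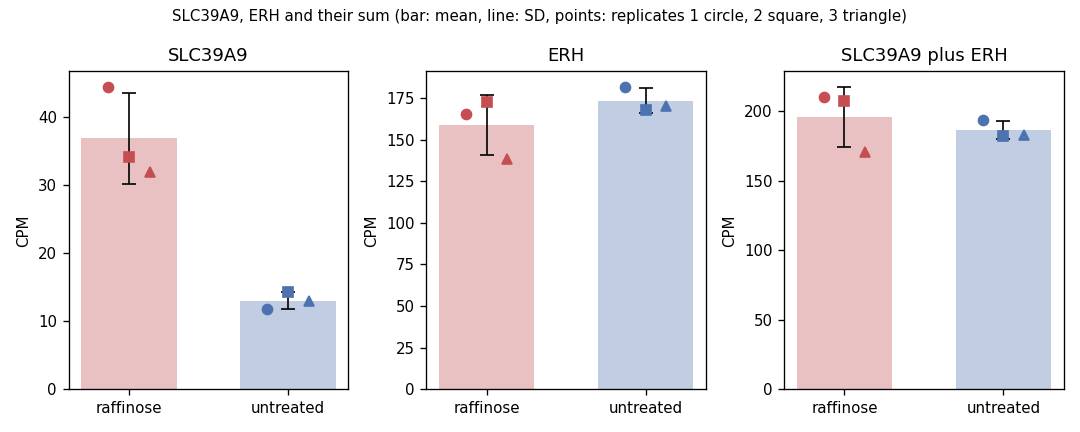
CPM of SLC39A9, of ERH and of their sum in raffinose and untreated libraries (points, 1 per library; bars, mean; lines, SD; n = 3 each). The SLC39A9 groups are apart (32.0 to 44.5 against 11.8 to 14.25 CPM), whereas the groups overlap for ERH and for the sum.

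All 10 genes were expressed enough to be tested, against 2 of the 5 SLC39 genes left out, so this may reflect the choice of genes. EdgeR called 1 of them, SLC39A9, beside 0.122% of all tested genes. Since SLC39A9 was chosen by that call, this count was fixed in advance, and the counts that follow include SLC39A9. An unadjusted edgeR p under 0.05 was found for 2 of the genes, SLC39A9 and SLC39A13, beside 13.3% of all tested genes. DESeq2 called the same 2 genes, beside 3.51% of all tested genes. The log2 fold change was above 0 in 5 and below 0 in 5 of the genes, while 51% of all tested genes were above 0. Its median was 0.0043 over the 10 genes and 0.0059 over all tested genes. The raffinose libraries were all above the untreated ones in 3 of the genes, SLC39A6, SLC39A9 and SLC39A13, and all below in 0, while 10.6% of all tested genes had raffinose libraries above and 10.9% below, 21.5% in all. In bulk RNA a change in the number of cells that carry a transcript and a change in the amount per cell cannot be told apart.

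SLC39A13, a zinc transporter of the Golgi and of cytoplasmic vesicles whose loss causes a form of Ehlers-Danlos syndrome, had the second largest log2 fold change. Its level was 58.6, 36.5 and 58.7 CPM over raffinose replicates 1 to 3, against 35.1, 28.5 and 25.1 CPM over untreated replicates 1 to 3. The groups did not overlap, but raffinose replicate 2 lay just above untreated replicate 1. The means were 51.3 ± 12.8 CPM in raffinose-treated and 29.6 ± 5.08 CPM in untreated cells. The log2 fold change was 0.80 (SE 0.22, 95% interval 0.28 to 1.31), which did not pass in edgeR (adjusted p = 0.222) and passed in DESeq2 (adjusted p = 0.0166).

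SLC39A7, which releases zinc from the endoplasmic reticulum, was among the steadiest genes of the family. It was at 159, 154 and 151 CPM over raffinose replicates 1 to 3, against 153, 164.5 and 156 CPM over untreated replicates 1 to 3. The groups overlapped, and the log2 fold change was -0.03 with a 95% interval of -0.16 to 0.10 (edgeR adjusted p = 0.866). This interval leaves out changes of the size seen for SLC39A9, a gene that was chosen by its call.

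SLC39A6 and SLC39A10, related importers of the plasma membrane that form a heteromer, differed in how steady they were. SLC39A6 was at 92.8, 92.9 and 92.2 CPM over raffinose replicates 1 to 3, against 87.2, 91.7 and 91.9 CPM over untreated replicates 1 to 3. All raffinose values were above the untreated ones by a narrow margin, and the log2 fold change of 0.04 did not pass (95% interval -0.09 to 0.17, edgeR adjusted p = 0.810). SLC39A10 was at 18.2, 15.1 and 16.6 CPM over raffinose replicates 1 to 3, against 8.30, 14.4 and 17.2 CPM over untreated replicates 1 to 3. Here the groups overlapped and untreated replicate 1 was low, with a log2 fold change of 0.32 (95% interval -0.30 to 0.94, edgeR adjusted p = 0.650). Without untreated replicate 1 it was 0.07, and without untreated replicate 3 it was 0.55.

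SLC39A1 and SLC39A3 encode importers of the plasma membrane from a second branch of the family. SLC39A1 was at 167, 195 and 175 CPM over raffinose replicates 1 to 3, against 229, 168 and 66.5 CPM over untreated replicates 1 to 3. The untreated libraries spanned the whole raffinose range, with untreated replicate 3 far below the other five, and the log2 fold change of 0.21 had a 95% interval of -0.75 to 1.18 (edgeR adjusted p = 0.863). Without untreated replicate 3 the log2 fold change was -0.15, the opposite direction. SLC39A3 was at 31.6 to 36.2 CPM with raffinose and at 34.1 to 38.9 CPM without (log2 fold change -0.07, 95% interval -0.28 to 0.14, edgeR adjusted p = 0.781), so its groups overlapped.

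SLC39A14, which carries iron and manganese as well as zinc, had the widest spread of the genes. It was at 176, 175 and 80.4 CPM over raffinose replicates 1 to 3, against 58.8, 203 and 203 CPM over untreated replicates 1 to 3. One library of each group was low, raffinose replicate 3 and untreated replicate 1, and the log2 fold change of -0.11 had a 95% interval of -1.33 to 1.12 (edgeR adjusted p = 0.958). Without raffinose replicate 3 the log2 fold change was 0.18, and without untreated replicate 1 it was -0.50. SLC39A4, the intestinal zinc importer that is mutated in acrodermatitis enteropathica, was at 8.90, 10.1 and 6.45 CPM over raffinose replicates 1 to 3, against 10.7, 7.72 and 7.72 CPM over untreated replicates 1 to 3. Its groups overlapped (log2 fold change -0.04, 95% interval -0.56 to 0.48, edgeR adjusted p = 0.964).

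Several of these genes stepped widely between libraries of 1 group. The highest library was at least 2 times the lowest in the untreated group for SLC39A1 (3.44 times), SLC39A10 (2.07 times) and SLC39A14 (3.45 times), and in the raffinose group for SLC39A14 (2.19 times). Of 11314 tested genes with a mean of at least 5 CPM, 5.36% reached that ratio in the raffinose group and 5.44% in the untreated group, where the median ratios were 1.15 and 1.17. For SLC39A9 the ratio was 1.39 in the raffinose and 1.21 in the untreated group. The libraries that stood low were not the same from gene to gene, and untreated replicate 1 was low for SLC39A10 and SLC39A14 but the highest untreated library for SLC39A1.

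**Figure D3:**
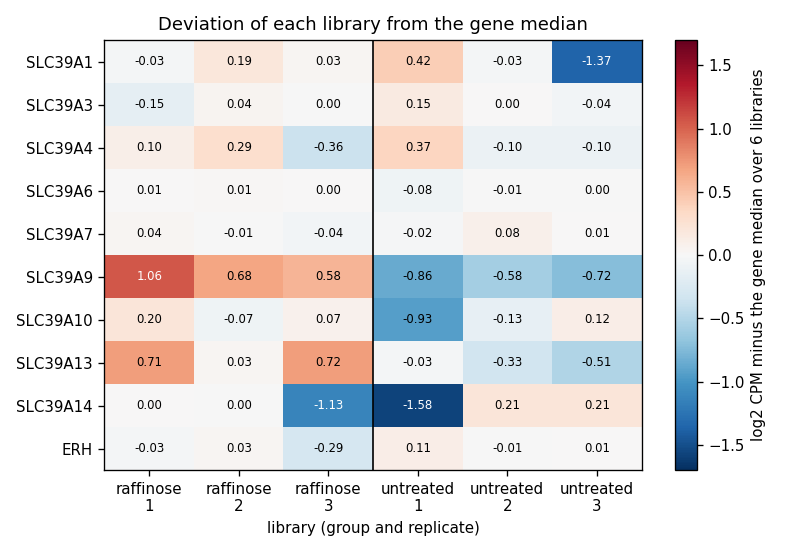
Log2 CPM of each gene in each library minus the median of that gene over the 6 libraries (red, above; blue, below), with raffinose libraries left of the line and untreated libraries right of it. SLC39A9 is red in the raffinose and blue in the untreated columns, while SLC39A1 departs in untreated replicate 3 (-1.37) and SLC39A14 in raffinose replicate 3 (-1.13) and untreated replicate 1 (-1.58).

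On the FPKM scale, which corrects for length, ERH led in both groups with 120.5 ± 11.9 FPKM in raffinose-treated and 128 ± 3.19 FPKM in untreated cells, apart from all SLC39 genes. SLC39A7 (45.9 FPKM with raffinose and 45.7 without) and SLC39A1 (44.6 and 37.3 FPKM) came next, with ranges that overlapped each other in both groups. SLC39A6 followed with 21.2 FPKM in raffinose-treated and 20.2 FPKM in untreated cells, and its range overlapped that of SLC39A14 in both groups. SLC39A9 averaged 4.35 ± 0.780 FPKM with raffinose, apart from SLC39A3 above it and SLC39A10 below it. Without raffinose it averaged 1.49 ± 0.166 FPKM, in ranges that overlapped those of SLC39A10 and SLC39A4. Its place in the order was therefore the eighth of 10 with raffinose and the ninth without.

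SLC39A9 was a small part of the summed level of the 9 SLC39 genes even where it was highest. The deposited genes include 14 of this family, so the sum leaves some out. Among these are SLC39A8 (2.80 FPKM with raffinose and 2.76 without) and SLC39A11 (2.23 and 1.97 FPKM). The 9 SLC39 genes summed to 157, 156 and 146 FPKM in raffinose replicates 1, 2 and 3, against 141, 151 and 122 FPKM in untreated replicates 1, 2 and 3. The sums overlapped, and untreated replicate 3, the library with low SLC39A1, was the lowest. SLC39A9 made up 2.55% to 3.34% of the sum with raffinose and 0.941% to 1.22% without.

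**Figure D4:**
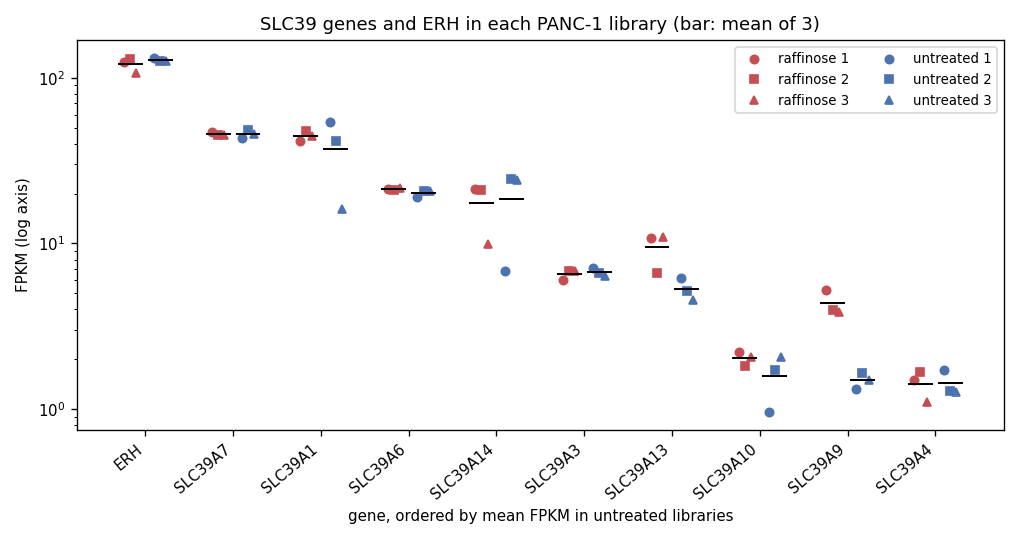
FPKM (log axis) of the 9 SLC39 genes and ERH in each library, ordered by their mean in untreated libraries, with raffinose libraries in red on the left of each pair and untreated libraries in blue on the right (bars, mean of 3). SLC39A9, SLC39A13 and, by a narrow margin, SLC39A6 have red points above all blue points, and SLC39A1 and SLC39A14 have single libraries far from the others.

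Of the 10 ZnT exporter genes, 7 were tested and 0 passed in either direction by edgeR or DESeq2, which call 0.122% and 3.51% of all tested genes, so that a list of this size says little by its calls. The log2 fold change was above 0 in 6 of the 7, beside 51% of all tested genes, with a median of 0.15. SLC30A1, the plasma membrane exporter, was at 52.5, 49.0 and 56.4 CPM over raffinose replicates 1 to 3, against 46.8, 51.5 and 48.6 CPM over untreated replicates 1 to 3, with overlapping groups (log2 fold change 0.11, edgeR adjusted p = 0.622). The Golgi exporter gene SLC30A6, named after its values were seen, had the largest absolute log2 fold change of the list. It was at 36.3, 53.6 and 38.0 CPM with raffinose and at 55.1 to 58.8 CPM without, so the groups did not overlap, but it did not pass (log2 fold change -0.41, edgeR adjusted p = 0.332). SLC30A4 and SLC30A9, also named after their values were seen, had all raffinose libraries above all untreated ones. Among all tested genes, raffinose libraries were all above in 10.6% and all below in 10.9%, 21.5% in all. SLC30A4 was at 18.9, 16.4 and 16.8 CPM with raffinose and at 13.7 to 15.4 CPM without (log2 fold change 0.27, edgeR adjusted p = 0.327). SLC30A9 was at 74.1, 75.9 and 72.6 CPM with raffinose and at 65.6 to 67.4 CPM without (log2 fold change 0.15, edgeR adjusted p = 0.309). Of 5 further ZIP genes that are not among the 9, 2 were tested and 0 were called.

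Of 11 listed metallothionein genes 3 were tested and 0 were called by edgeR or DESeq2, where 0.122% and 3.51% of all tested genes were, and 8 had no count in any library. MT2A was at 369, 378 and 341 CPM over raffinose replicates 1 to 3, against 404, 345 and 361 CPM over untreated replicates 1 to 3, with overlapping groups. Its log2 fold change was -0.03 with a 95% interval of -0.21 to 0.16 (edgeR adjusted p = 0.910). Many metallothionein genes are near-identical copies, so the split of reads among those is uncertain, which may bear on some of the 8 without counts. MTF1 was at 41.0, 39.0 and 44.2 CPM over raffinose replicates 1 to 3, against 36.7, 43.4 and 38.4 CPM over untreated replicates 1 to 3 (log2 fold change 0.07, 95% interval -0.15 to 0.29, edgeR adjusted p = 0.798).

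**Figure D5:**
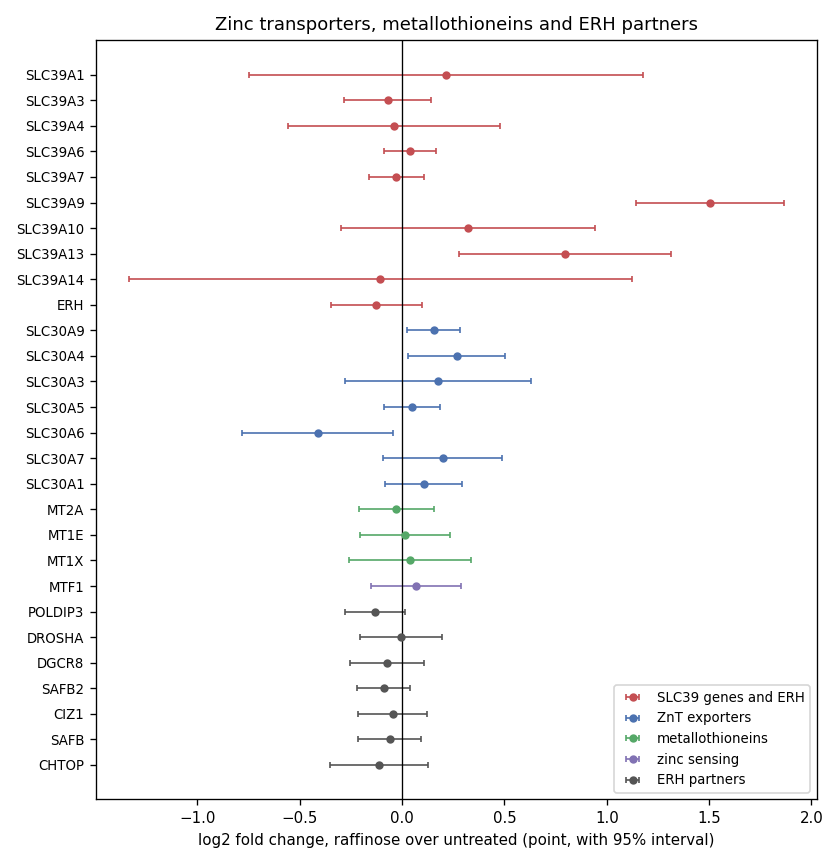
Log2 fold change of raffinose over untreated with its 95% interval from the edgeR fit, for the 9 SLC39 genes and ERH (red) and the tested ZnT exporters, metallothioneins, MTF1 and genes of ERH partners. The interval of SLC39A9 (1.14 to 1.86), a gene chosen by its call, lies above those of all ZnT exporter, metallothionein and ERH partner genes drawn. It overlaps those of SLC39A13 (0.28 to 1.31) and SLC39A1 (-0.75 to 1.18). The interval of SLC39A14 (-1.33 to 1.12) is the widest among the red ones.

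Metal response elements share the core TGCACNC or TGCGCNC. A search of the RefSeq promoter windows of 300 bases on both strands (GRCh38.p14), with overlapping matches counted, found this core in 29.6% of 35116 windows, and the looser TGCNCNC in 55.9%. Neither form was present in the ERH window or in either SLC39A9 window. The tighter core occurred once in a window of SLC39A1, SLC39A3, SLC39A6, SLC39A10 and SLC39A13, and not in that of SLC39A7. The absence of these letters says nothing of the factor beyond the windows searched. The MT2A window at chr16:56608334-56608633 on the plus strand held 8 matches and the SLC30A1 window at chr1:211579112-211579411 on the minus strand held 2, shown in capitals for comparison with the pair above.
MT2A: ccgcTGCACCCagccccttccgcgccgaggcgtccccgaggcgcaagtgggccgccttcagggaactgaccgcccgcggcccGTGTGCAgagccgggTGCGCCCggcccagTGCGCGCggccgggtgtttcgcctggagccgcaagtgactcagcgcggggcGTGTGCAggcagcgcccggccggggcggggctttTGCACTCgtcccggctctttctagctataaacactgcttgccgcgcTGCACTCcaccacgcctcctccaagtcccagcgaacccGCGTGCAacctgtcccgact
SLC30A1: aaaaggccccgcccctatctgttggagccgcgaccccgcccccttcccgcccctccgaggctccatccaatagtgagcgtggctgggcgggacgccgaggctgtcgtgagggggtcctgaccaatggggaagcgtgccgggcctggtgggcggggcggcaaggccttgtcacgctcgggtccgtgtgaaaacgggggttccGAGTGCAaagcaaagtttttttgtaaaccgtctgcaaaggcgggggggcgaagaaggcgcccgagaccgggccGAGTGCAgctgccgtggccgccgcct

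Genes of proteins that work with ERH lay close to 0 on the log2 fold change scale. Of 7 listed genes all were tested and 0 were called by edgeR or DESeq2, beside 0.122% and 3.51% of all tested genes. Their log2 fold changes were all below 0, with a median of -0.07, as was that of ERH, while 51% of all tested genes were above 0. POLDIP3 and SAFB2, named after their values were seen, had all raffinose libraries below all untreated ones, as did 10.9% of all tested genes. POLDIP3 was at 73.5, 77.8 and 71.0 CPM with raffinose and at 79.1 to 83.0 CPM without (log2 fold change -0.13, edgeR adjusted p = 0.417). SAFB2 was at 73.7, 72.6 and 73.5 CPM with raffinose and at 75.8 to 80.0 CPM without (log2 fold change -0.09, edgeR adjusted p = 0.539). DGCR8 was at 31.4, 32.1 and 29.9 CPM over raffinose replicates 1 to 3, against 31.0, 32.6 and 34.7 CPM over untreated replicates 1 to 3, and its groups overlapped (edgeR adjusted p = 0.730).

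Besides SLC39A9 itself, 26 genes lay within 500 kb of it, ERH among them, and 8 were tested. EdgeR called 0 of the 8, beside 0.122% of all tested genes, and DESeq2 called 1, beside 3.51%. This was ACTN1, which encodes the actin-crosslinking protein alpha-actinin 1. ACTN1 was at 281, 282 and 286 CPM over raffinose replicates 1 to 3, against 353, 345 and 360 CPM over untreated replicates 1 to 3, a difference in the opposite direction from SLC39A9 (log2 fold change -0.32, edgeR adjusted p = 0.0929). Overlaps were not limited to SLC39A9 and ERH. Another 12 genes of the table overlapped 1 of the 10 genes, of which 5 were tested and 0 were called. The transcription factor gene CREB3L4 overlaps SLC39A1 by 88 bases on the opposite strand. It was at 8.17, 8.56 and 7.66 CPM over raffinose replicates 1 to 3, against 9.64, 7.83 and 8.68 CPM over untreated replicates 1 to 3. Whether an overlap bears on the low SLC39A1 level in untreated replicate 3 was not tested. The nuclear receptor gene RXRB overlaps SLC39A7 head to head by 221 bases, and its log2 fold change was 0.05 (edgeR adjusted p = 0.799). The other 3 tested overlapping genes are ENSG00000273026 and ENSG00000282386 at SLC39A1 and ENSG00000267001 at SLC39A3, with edgeR adjusted p of 0.760, 0.567 and 0.825. ENSG00000267001 overlaps SLC39A3 over 7814 bases on the same strand, so strand alone does not separate their reads. The untested ENSG00000285779 overlaps SLC39A1 over 8471 bases, also on the same strand, and had no count in any library. The 7 genes that were not tested, MIR6737 and ENSG00000285779 at SLC39A1, ENSG00000272115 at SLC39A4, RNU6-915P and AHCYP5 at SLC39A10, ENSG00000255197 at SLC39A13 and ENSG00000241026 at SLC39A14, had at most 19 deposited counts in any library.

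The 5 genes whose course over the 6 libraries lay nearest to that of SLC39A9 were sought among 11962 tested genes with a mean of at least 1 FPKM in a group. They are a description only, since SLC39A9 was chosen by its raffinose call. Likeness was the root mean square difference of log2 CPM, with each gene set to 0 at its untreated mean. They were ENSG00000266501 (AC025198) at 0.16, the membrane protein gene TMEM123 at 0.17, the transcription factor EGR1 at 0.19, the dehydrogenase DHRS2 at 0.21 and the serine protease inhibitor SERPINI1 at 0.36. ENSG00000266501 lies on chromosome 17 from 73067870 to 73068288 on the minus strand, inside the span of another family member, SLC39A11, on the same strand. It was at 1.41, 0.964 and 1.01 CPM over raffinose replicates 1 to 3, against 0.405, 0.434 and 0.490 CPM over untreated replicates 1 to 3, and did not pass (edgeR adjusted p = 0.151). These levels rest on few reads, with 26, 28 and 29 deposited counts in untreated replicates 1 to 3, so its place among the 5 is uncertain. All 5 genes, like SLC39A9, had raffinose libraries above all untreated ones, which follows from how they were sought. ENSG00000266501 (2.26 FPKM with raffinose and 0.864 without) and DHRS2 (2.31 and 0.840 FPKM) entered the search only through their raffinose level.

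The total deposited count per library ranged from 62756117 to 63553897 in the raffinose group and from 59723420 to 66063664 in the untreated group. Of 5 epithelial markers, KRT8 and KRT18 reached a mean of 1 FPKM over all libraries and held nearly all of the summed level given next. EPCAM was at 0.229 FPKM with raffinose and 0.166 FPKM without, and KRT19 at 0.158 and 0.119 FPKM. The log2 fold change was above 0 for EPCAM (0.41) and KRT19 (0.39), and below 0 for KRT7, KRT8 and KRT18. The summed level of these markers was 646 to 677 FPKM in raffinose libraries and 840 to 979 FPKM in untreated libraries, with 0 of the 5 called by edgeR and 3, KRT7, KRT8 and KRT18, called lower with raffinose by DESeq2, which calls 2.17% of all tested genes lower. The part of this difference in the results above was not tested. Of the fibroblast markers 1 of 5 reached 1 FPKM, with sums of 3.98 to 4.40 FPKM with raffinose and 3.38 to 3.72 FPKM without. No leukocyte, endothelial, erythroid, acinar or endocrine marker reached a mean of 1 FPKM, and all 4 acinar markers and 3 of 4 endocrine markers had no count in any library. The highest sum of any of these 5 lists in a library was 0.550 FPKM, among leukocyte markers.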

How the data were processed

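The 3 raffinose and 3 untreated libraries hold poly(A) RNA and were grouped by their titles. The labels do not say that libraries of a group are separate cultures, so p-values measure the spread between libraries, which may be technical. The authors deposited FPKM values and estimated counts per gene, per the file headers. Tools listed without roles, per the submitters' processing notes, include StringTie 1.3.4d, HISAT2 2.0.4 and cutadapt 1.9, besides DESeq2 and edgeR. The deposited counts are whole numbers in which 4 is far more frequent than 3 or 5 (1382, 456 and 286 genes in raffinose replicate 1), so they overstate fragments. Of the deposited genes, 58394 occur in GENCODE 29, 84.6% with the same start.

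The deposited counts, without change, went into edgeR 4.0.16 (run under R 4.3.3). After filterByExpr with a minimum count of 10, libraries were scaled by TMM and the model fitted with glmQLFit and glmQLFTest over all 18863 kept genes, with calls at a Benjamini-Hochberg adjusted p under 0.05. The 95% intervals of log2 fold changes use the SE and degrees of freedom of that fit. The script was tested on simulated data. Alternatives were DESeq2 1.42.0, its size factors, no filter, an FPKM filter, limma 3.58.1 on log2(FPKM + 1) and log2(FPKM + 0.1), a replicate block, robust dispersion, counts divided by 4, and each library left out in turn. The numbers in the titles are not stated to pair cultures, so they were not taken to pair libraries. The deviations of libraries with the same number correlated at -0.02, -0.06 and 0.01. No libraries of unlike number were set beside these, so the correlations do not settle whether libraries were paired.

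Named were all 10 members, called genes of the zinc and ERH partner lists, MTF1, SLC30A1 and MT2A, genes called near or overlapping members, and the 5 genes nearest in course to SLC39A9. DGCR8, POLDIP3, SAFB2, SLC30A4, SLC30A6, SLC30A9, ACTN1 and the marker genes given by name were named after their values were seen. The members and lists were chosen with earlier results of these data known. Promoters are those of RefSeq (GRCh38.p14). Of the 10 members, 8 matched a promoter window that was used.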

Additional observations from a re-analysis of the deposited data

How the results depend on the processing

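SLC39A9 was higher with raffinose in all 15 alternatives and called in 8 of them, with adjusted p from 1.26e-15 (DESeq2) to 0.430 (replicate block). Its log2 fold change was 1.09 with limma on log2(FPKM + 1) (adjusted p = 0.0551) and 1.49 with the replicate block, neither called, and 1.35 to 1.60 with libraries left out. The block also gave 0 genes higher and 0 lower, with 1932 at an unadjusted p under 0.05. Against 7 genes higher and 16 lower, DESeq2 called 254 and 409, and the filter at 1 FPKM 15 and 27. Limma on log2(FPKM + 0.1) called 11 higher and counts divided by 4 called 11 higher. Leaving out a library gave 0 to 15 higher and 4 to 13 lower. The 0 came from edgeR once untreated replicate 3 was left out, and 1969 genes then fell under an unadjusted p of 0.05. ERH, SLC39A3, SLC39A6, SLC39A10 and SLC39A13 kept their direction in all 15 alternatives, and of these 5 genes DESeq2 called SLC39A13. Among uncalled genes, SLC39A7 turned to 0.0080 and SLC39A14 to 0.034 with limma on log2(FPKM + 1), and to 0.0082 and 0.046 on log2(FPKM + 0.1). With libraries left out the log2 fold change ranged from -0.053 to 0.0017 for SLC39A7, from -0.50 to 0.18 for SLC39A14, from -0.18 to 0.14 for SLC39A4, from 0.07 to 0.55 for SLC39A10, from 0.69 to 0.99 for SLC39A13, from -0.19 to -0.04 for ERH, from -0.11 to -0.01 for SLC39A3, from 0.01 to 0.05 for SLC39A6 and from -0.15 to 0.61 for SLC39A1. The difference in the SLC39A9 plus ERH sum was 9.49 CPM, 2.53 to 22.1 CPM with libraries left out and -4.79 on the FPKM scale. The cause of these differences was not tested. If a pair adds 4, SLC39A4 rests on about 104 to 172 read pairs per library.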
